A study of Mus musculus with 12 samples.

Results

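The guanylate binding proteins (GBPs) are described here by 9 genes, Gbp2, Gbp3, Gbp4, Gbp5, Gbp6, Gbp7, Gbp8, Gbp9 and Gbp10. They were chosen by name, and each had 1 row in an expression table of 34348 genes. RNA was sequenced from the liver and the small intestine of C57BL/6 mice. There were 4 groups of 3 libraries: liver of LCWE-induced mice, liver of PBS mice, small intestine of LCWE-induced mice and small intestine of PBS mice. LCWE is not spelled out in the labels. It is the usual abbreviation of Lactobacillus casei cell wall extract, a preparation injected into mice to model the vasculitis of Kawasaki disease. The labels name LCWE alone, whereas the column names of the authors' deposited differential table read LCWECFA, where the meaning of CFA is left unexplained. The labels give no age, sex, dose or time after induction. Nor do they tie the 3 libraries of a group to separate mice, so the spread behind each p-value is that between libraries and could be technical.

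GBPs are large GTPases of the dynamin superfamily and are among the genes most strongly induced by interferon gamma. Interferon gamma signals through its receptor and the Jak kinases to transcription factors that act at gamma-activated sites and interferon-stimulated response elements. The induced proteins assemble on bacteria and on the vacuoles of intracellular pathogens, and they promote the inflammasome response to lipopolysaccharide in the cytosol. In the mouse the genes lie in 2 clusters. By the coordinates in the deposited table (mm10), Gbp5, Gbp7, Gbp3 and Gbp2 lie in this order on the plus strand of chromosome 3, between 142493978 and 142638008. Gbp8, Gbp9, Gbp4, Gbp10 and Gbp6 lie on the minus strand of chromosome 5, between 105014150 and 105293698.

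RefSeq promoter sequences (GRCm38.p6, 250 bases before to 50 after the start of a transcript) were at hand for 4 of the 9 members, all of them in the chromosome 3 cluster: Gbp2, Gbp3, Gbp5 and Gbp7. All 4 of these genes are shown because their sequences were at hand, so they were not picked by motif. Capitals mark every match, on either strand, to one of 2 motifs. The first is GAAA, any 2 bases and GAAA again, the core of an interferon-stimulated response element. The other is TTCNNNGAA, the core of a gamma-activated site.
Gbp5, chr3:142496684-142496983, plus strand: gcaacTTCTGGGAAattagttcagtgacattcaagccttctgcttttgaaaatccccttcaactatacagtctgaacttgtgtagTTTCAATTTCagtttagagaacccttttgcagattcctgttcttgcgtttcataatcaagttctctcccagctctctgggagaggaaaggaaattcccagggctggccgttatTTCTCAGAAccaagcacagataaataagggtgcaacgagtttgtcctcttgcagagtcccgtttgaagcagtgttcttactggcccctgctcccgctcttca
Gbp7, chr3:142530086-142530385, plus strand: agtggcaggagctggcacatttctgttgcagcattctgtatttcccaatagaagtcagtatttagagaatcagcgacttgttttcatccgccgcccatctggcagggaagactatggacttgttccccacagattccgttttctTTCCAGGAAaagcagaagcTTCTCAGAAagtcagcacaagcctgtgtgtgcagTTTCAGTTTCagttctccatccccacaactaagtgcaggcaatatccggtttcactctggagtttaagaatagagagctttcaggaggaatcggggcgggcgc
Gbp3, chr3:142559794-142560093, plus strand: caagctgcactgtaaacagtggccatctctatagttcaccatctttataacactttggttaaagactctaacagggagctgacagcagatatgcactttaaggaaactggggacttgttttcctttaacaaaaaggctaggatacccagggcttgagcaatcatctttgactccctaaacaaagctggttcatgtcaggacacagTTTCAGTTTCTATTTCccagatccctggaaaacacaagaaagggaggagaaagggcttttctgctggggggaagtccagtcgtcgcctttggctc
Gbp2, chr3:142620413-142620712, plus strand: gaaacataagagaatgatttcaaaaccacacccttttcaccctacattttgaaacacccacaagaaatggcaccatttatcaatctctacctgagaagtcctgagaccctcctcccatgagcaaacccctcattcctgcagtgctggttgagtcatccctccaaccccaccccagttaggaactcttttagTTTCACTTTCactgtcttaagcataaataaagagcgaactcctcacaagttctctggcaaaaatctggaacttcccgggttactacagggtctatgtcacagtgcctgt

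Each of the 4 promoters held the response element motif, in every case on the strand opposite to the one printed. The match began 59 bases before the start in Gbp2, 53 in Gbp7 and 165 in Gbp5. In Gbp3 there were matches beginning 45 and 39 bases before the start, and they overlapped each other. The motif TTCNNNGAA had 2 matches in Gbp5 and 2 in Gbp7, and none in the windows of Gbp2 and Gbp3. Gbp3 has a second RefSeq start whose window held neither motif, and that window is not printed. Of 32851 promoters of the same length, 3.44% held the response element motif and 8.3% held TTCNNNGAA. These are matches of letters and not sites shown to be bound.

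**Figure D1:**
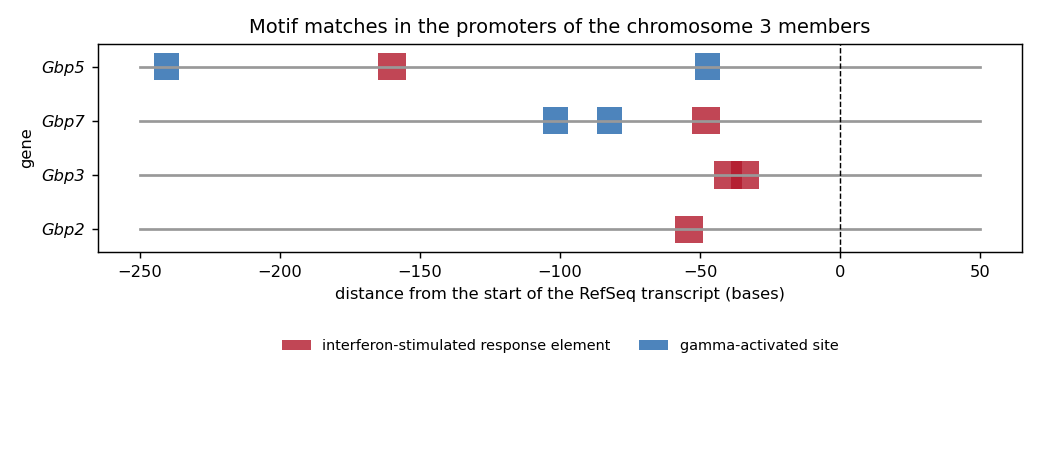
Matches to the core of the interferon-stimulated response element (red) and of the gamma-activated site (blue) in the promoter windows of the chromosome 3 members, against the distance in bases from the start of the RefSeq transcript. Red matches stand in all 4 rows, and blue ones in the Gbp5 and Gbp7 rows.

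The libraries held 34741958 to 44921885 reads assigned to genes in liver and 30294594 to 40253006 in small intestine, computed from the deposited values. A member had between 204 reads (Gbp5) and 9520 reads (Gbp8) in a library. Levels are in RPKM, reads scaled to the length of the gene and the depth of the library, which can be set side by side between genes. Alb, the serum albumin of hepatocytes, had 10519 to 23555 RPKM over the 6 livers and 51.6 to 145 RPKM over the 6 intestines. Fabp2, the intestinal fatty acid binding protein, had 38.6 to 113 RPKM in liver and 676 to 9408 RPKM in intestine, so both tissue labels matched their markers. Fold changes are on the scale of log2(RPKM + 0.5), with the SE, and the threshold was an adjusted p of 0.05 in limma.

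In liver all 9 GBP genes were higher with LCWE. The fitted log2 fold changes ran from 1.13 (Gbp7) to 1.75 (Gbp2), with a median of 1.44 against 0.06 over all genes tested. All 9 passed the threshold, and for all 9 every LCWE liver lay above every PBS liver. Over the whole table, 3.39% of 14404 genes were called higher, 60.2% had a positive fold change and 18.7% had LCWE livers that all lay above the PBS livers. Summed over the 9 genes, the level was 134, 121 and 107 RPKM in the LCWE livers, against 36.8, 47.5 and 45.3 RPKM in the PBS livers.

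Gbp2, which in mice is recruited to the vacuole of Toxoplasma, had 11.9, 11.8 and 10.5 RPKM in the LCWE livers and 2.61, 2.93 and 3.60 RPKM in the PBS livers. It had the largest fitted change of the family, 1.75 ± 0.13 (limma, adjusted p = 0.00557), and 53 of the 14404 genes tested had a larger one. Gbp5, which in mouse macrophages promotes assembly of the NLRP3 inflammasome, was the least abundant member. It had 3.88, 3.85 and 2.48 RPKM in the LCWE livers and 0.689, 0.887 and 0.988 RPKM in the PBS livers, a change of 1.51 ± 0.19 (limma, adjusted p = 0.0125). The third LCWE liver (replicate 4) was the lower one, and still more than 1 RPKM above the highest PBS liver.

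Gbp3 was the most abundant chromosome 3 member. Its level was 28.4, 27.2 and 24.5 RPKM in the LCWE livers and 10.5, 9.10 and 9.06 RPKM in the PBS livers, a change of 1.44 ± 0.11 (limma, adjusted p = 0.00557). Gbp7, which in mice takes part in oxidative killing of bacteria by macrophages, had 9.24, 9.08 and 8.96 RPKM in the LCWE livers against 2.78, 5.14 and 4.05 RPKM in the PBS livers. Its LCWE livers were nearly equal while its PBS livers lay farther apart, and its change, 1.13 ± 0.20, was the smallest of the 9 (limma, adjusted p = 0.0322).

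In the chromosome 5 cluster, Gbp8 had 20.6, 20.5 and 17.1 RPKM in the LCWE livers against 6.15, 5.78 and 7.17 RPKM in the PBS livers. Gbp4 had 4.72, 5.20 and 4.08 RPKM in the LCWE livers against 1.04, 1.48 and 1.38 RPKM in the PBS livers. The groups were well apart in both genes, and the changes were alike, 1.54 ± 0.13 for Gbp8 and 1.53 ± 0.15 for Gbp4 (limma, adjusted p = 0.00557 and 0.00581). Gbp9 had 6.97, 6.36 and 6.55 RPKM in the LCWE livers against 1.81, 2.53 and 2.88 RPKM in the PBS livers, a change of 1.31 ± 0.16 (limma, adjusted p = 0.0120).

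Gbp10 and Gbp6 are both known to limit intracellular bacteria in mouse macrophages. Gbp10 had 32.3, 23.3 and 21.5 RPKM in the LCWE livers against 7.22, 13.2 and 10.1 RPKM in the PBS livers, a change of 1.31 ± 0.24 (limma, adjusted p = 0.0380). Gbp6 had 16.0, 13.3 and 11.8 RPKM in the LCWE livers against 4.08, 6.47 and 6.03 RPKM in the PBS livers, a change of 1.25 ± 0.19 (limma, adjusted p = 0.0229). In both genes LCWE replicate 1 was the highest liver and PBS replicate 2 the lowest. Over the 9 members, LCWE replicate 1 was the highest LCWE liver in 8 and replicate 4 the lowest in 8.

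The members that passed depended in part on single libraries, as did the calls over all genes, while the direction of the members did not. The number called was 4 without LCWE replicate 1, 4 without LCWE replicate 2, 6 without LCWE replicate 4, 9 without PBS replicate 2, 5 without PBS replicate 3 and 6 without PBS replicate 4. With every library kept, 489 genes of the whole table were called higher. In the order just given, the 6 fits called 72, 47, 203, 688, 108 and 220 genes higher. The member count was below 9 only in fits that also called fewer genes over the whole table. A dependence on single libraries particular to the GBPs was not tested. Gbp2, Gbp3, Gbp4 and Gbp8 passed in each of these 6 fits. Gbp6 and Gbp10 passed in 1 of the 6, the one without PBS replicate 2. The authors' deposited table of liver genes, 797 in number, lists all 9 members. Its log2 fold changes run from 1.17 (Gbp7) to 1.93 (Gbp2), and its FDR values from 0.000422 (Gbp4) to 0.00665 (Gbp10).

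**Figure D2:**
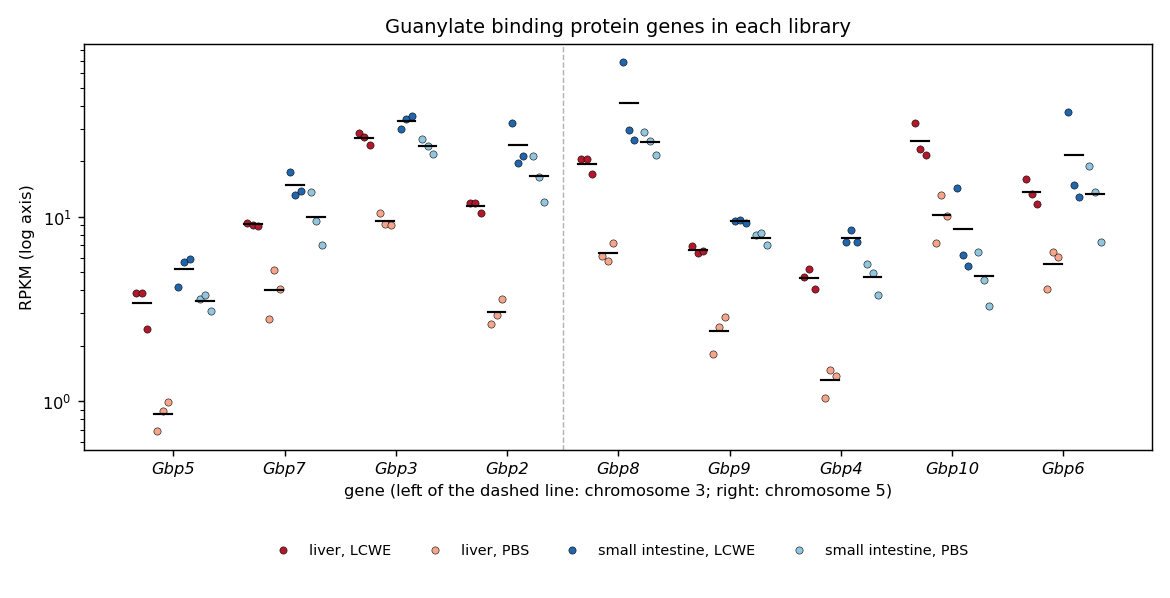
Level of each member in RPKM (log axis) in each of the 12 libraries, with points for libraries and bars for group means. The LCWE livers (dark red) lie above the PBS livers (light red) for all 9 genes, while LCWE and PBS intestines (dark and light blue) overlap for 5 of them.

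In the small intestine the fitted changes were also positive for all 9 members, but smaller, and none passed the threshold. They ran from 0.29 (Gbp9) to 0.71 (Gbp10), with a median of 0.57 against 0.11 over all genes tested, and the adjusted p ran from 0.234 to 0.555 (limma). No gene of the whole table passed in this tissue (0% of 17510), by limma or by voom on the recovered reads. At an unadjusted p of 0.05 there were 2202 genes, 12.6%, and 5 of the 9 members (Gbp3, Gbp4, Gbp5, Gbp7 and Gbp9). A positive fold change was the commoner direction over the whole table, at 69%. The authors' deposited table of 220 intestinal genes lists none of the members.

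For Gbp3, Gbp4, Gbp5 and Gbp9 the LCWE intestines all lay above the PBS intestines, a pattern shared by 13.2% of genes tested. Gbp4 had 7.31, 8.46 and 7.30 RPKM in the LCWE intestines and 5.53, 4.93 and 3.75 RPKM in the PBS intestines, a difference of 0.66 ± 0.15 (95% interval 0.30 to 1.02; limma, adjusted p = 0.234). Gbp3 had 30.0, 33.9 and 35.2 RPKM in the LCWE intestines and 26.4, 24.1 and 21.9 RPKM in the PBS intestines. Gbp5 had 4.15, 5.69 and 5.88 RPKM in the LCWE intestines and 3.60, 3.77 and 3.08 RPKM in the PBS intestines. For Gbp9 the LCWE libraries were close together, at 9.51, 9.64 and 9.29 RPKM, and the PBS libraries had 7.96, 8.15 and 6.99 RPKM.

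The other 5 members were set apart by 1 library. LCWE replicate 1 lay above the other 5 intestines for Gbp2, Gbp6, Gbp7, Gbp8 and Gbp10, which is 5 of 9 members against 12% of all genes tested. Gbp8 had 68.7 RPKM in that library, 29.6 and 26.1 RPKM in the other LCWE intestines, and 28.8, 25.8 and 21.7 RPKM in the PBS intestines. Gbp6 had 37.1 RPKM there, 14.8 and 12.8 RPKM in the other LCWE intestines, and 18.8, 13.7 and 7.33 RPKM in the PBS intestines. The ratio of LCWE replicate 1 to the mean of the other LCWE intestines was 2.68 for Gbp6, 2.47 for Gbp8 and 2.45 for Gbp10.

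Gbp10 had 14.2, 6.17 and 5.44 RPKM in the LCWE intestines against 6.48, 4.56 and 3.26 RPKM in the PBS intestines. The same ratio was smaller for Gbp2, 1.57, and for Gbp7, 1.31. Gbp2 had 32.2, 19.7 and 21.3 RPKM in the LCWE intestines against 21.4, 16.4 and 11.95 RPKM in the PBS intestines. In contrast, Gbp5 was lowest in this library among the LCWE intestines, with a ratio of 0.717. Without LCWE replicate 1 the median change over the 9 members was 0.33 and still no member passed. PBS replicate 4 was the lowest PBS intestine for all 9 members, and without it the median change was 0.38.

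**Figure D3:**
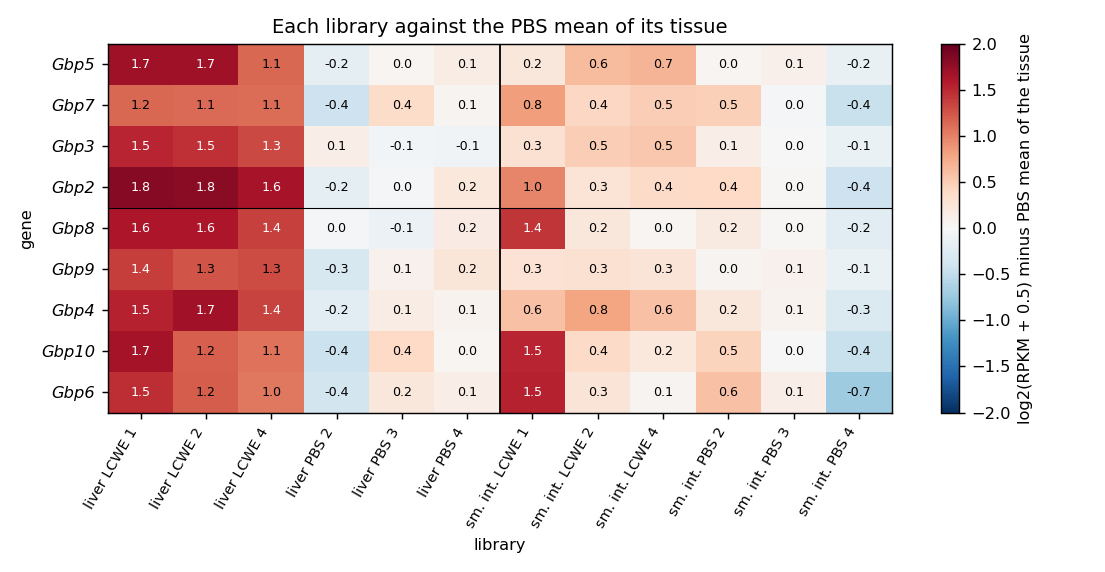
Each library's log2(RPKM + 0.5) minus the mean of the PBS libraries of its tissue, for the 9 members (chromosome 3 genes above the line, chromosome 5 genes below it). All 3 LCWE livers are red in every row, whereas among the LCWE intestines replicate 1 is dark red for Gbp8, Gbp10 and Gbp6 and pale for Gbp5, Gbp3 and Gbp9.

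The members' levels were also compared with each other within a tissue. Over the 6 livers the 36 pairwise correlations of log2 levels had a median of 0.97, from 0.892 to 0.996. Over the 6 intestines the median was 0.767, from 0.108 (Gbp5 with Gbp8) to 0.976 (Gbp4 with Gbp9). These correlations are descriptions that include the group difference, which was larger in liver. With the group means taken out, the median was 0.628 in liver, with a lowest value of -0.62 (Gbp3 with Gbp7), and 0.520 in intestine, with a lowest value of -0.75 (Gbp5 with Gbp8). Gbp6 and Gbp10 were then the closest pair in both tissues, at 0.959 in liver and 0.985 in intestine. These genes share 90.2% and 82.5% of their 50-base stretches with another gene, mainly Gm43302. The part of shared reads in their correlation was not tested.

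The LCWE effect was larger in liver than in intestine for all 9 members, by 0.55 (Gbp7) to 1.21 (Gbp2) on the log2 scale. Of all genes tested, 48.5% had a larger effect in liver. The difference passed for 2 members, Gbp3 at 0.99 ± 0.15 (limma, adjusted p = 0.0224) and Gbp9 at 1.03 ± 0.19 (limma, adjusted p = 0.0348), where 0.532% of 18619 genes passed in this direction. Gbp2, with the largest difference, did not pass (1.21 ± 0.31, 95% interval 0.52 to 1.89; limma, adjusted p = 0.104). The interval for Gbp6 included 0 and was wide, from -0.59 to 1.86. Those for Gbp7 and Gbp10 also included 0, from -0.18 to 1.28 and from -0.49 to 1.69.

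This count changed when single libraries of either tissue were left out, as did the calls over all genes. It was 0 without liver LCWE replicate 1, liver LCWE replicate 2, liver PBS replicate 3, intestinal PBS replicate 2 or intestinal PBS replicate 3, each left out in turn. It was 1, Gbp3, without liver LCWE replicate 4, intestinal LCWE replicate 2 or intestinal LCWE replicate 4. It was 4 without intestinal LCWE replicate 1, where Gbp2 and Gbp8 joined, and 4 without intestinal PBS replicate 4, where Gbp2 and Gbp4 joined. It stayed at 2 without liver PBS replicate 2 or liver PBS replicate 4. Over all genes, 99 were called with the larger effect in liver when every library was kept. They numbered 15 to 45 where the member count was 0 and 26 to 98 where it was 1. Where it was 4 they numbered 317 and 144, and where it stayed at 2 they numbered 116 and 68.

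**Figure D4:**
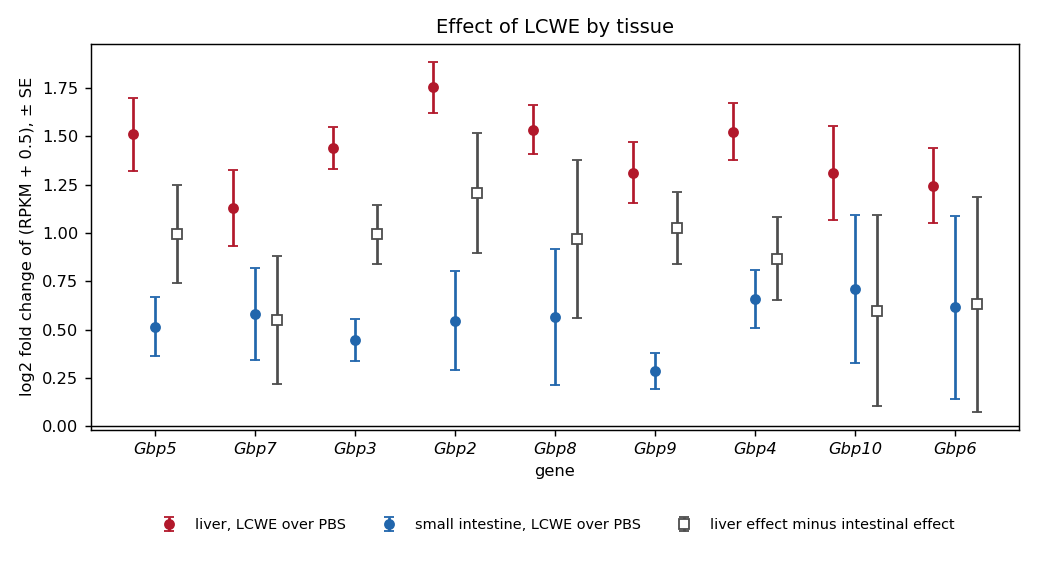
Log2 fold change of (RPKM + 0.5) with LCWE over PBS in liver (red) and small intestine (blue), and the liver effect minus the intestinal effect (open squares), for each member; bars are the SE from limma. The liver values lie between 1.13 and 1.75, the intestinal ones between 0.29 and 0.71, and the longest bars belong to Gbp6, Gbp10 and Gbp8 in intestine and in the difference.

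In mice given PBS, 8 of the 9 members were lower in PBS liver than in PBS intestine, and Gbp10 was higher. Of 17253 genes tested, 60.7% were called lower and 16.9% higher, with a median of -0.71. This split rests on the scaling: 10466 genes were called lower and 2915 higher in RPKM, against 5898 lower and 5973 higher with quantile scaling and 6240 lower and 5643 higher with median-ratio scaling. Gbp2 averaged 3.04 ± 0.505 RPKM in PBS liver and 16.6 ± 4.73 RPKM in PBS intestine (SD, n = 3 each), a log2 difference of -2.24 ± 0.22. Gbp8 averaged 6.37 ± 0.72 RPKM in PBS liver and 25.4 ± 3.57 RPKM in PBS intestine (SD, n = 3 each), a log2 difference of -1.91 ± 0.14. The remaining 6 differences were between -1.12 (Gbp6) and -1.56 (Gbp5). Rescaling, which brought the median of all genes near 0, moved the median of the 9 members to -0.75 (quantile) and -0.81 (median-ratio), against -1.51 in RPKM. Over both scalings Gbp2 had -1.60 and -1.51, Gbp8 -1.37 and -1.15, Gbp3 -0.78 and -0.52, and Gbp5 -0.75 and -0.95. The direction held for all 9, and Gbp6 and Gbp7 lost the call under both. Gbp6 also lost it without liver PBS replicate 2 (limma, adjusted p = 0.0621), intestinal PBS replicate 2 (limma, adjusted p = 0.0562) or intestinal PBS replicate 3 (limma, adjusted p = 0.0602).

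Gbp10 ran the other way, averaging 10.2 ± 2.97 RPKM in PBS liver and 4.77 ± 1.62 RPKM in PBS intestine (SD, n = 3 each), a log2 difference of 1.03 ± 0.28 (limma, adjusted p = 0.0135), which was 1.70 with quantile and 1.76 with median-ratio scaling. It made up 21.1% ± 2.59 of the family's summed level in LCWE liver and 23.2% ± 4.13 in PBS liver, against 4.93% ± 1.33 in LCWE intestine and 4.25% ± 0.578 in PBS intestine (SD, n = 3 each). How much of these levels belongs to Gbp10 is uncertain, since 82.5% of its 50-base stretches are shared with another gene, mainly Gm43302. Gbp8 was the larger share in intestine, 23.7% ± 6.49 with LCWE and 23.3% ± 1.61 with PBS (SD, n = 3 each). Gbp3 held 21.1% to 22.5% on average in each of the 4 groups, but its share varied between libraries. It ran from 13.6% to 25.7% in LCWE intestine and from 19.2% to 28.4% in PBS liver.

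By group mean in RPKM, 8 members had their highest level in LCWE intestine and their lowest in PBS liver. Gbp10 had its highest level in LCWE liver and its lowest in PBS intestine. For Gbp9 the order LCWE intestine, PBS intestine, LCWE liver, PBS liver had no overlap between neighbours. For Gbp2 and Gbp8 the order was the same, and only the LCWE and PBS intestines overlapped. For Gbp4 and Gbp5 it was also the same, and only PBS intestine and LCWE liver overlapped. Gbp7 had this order too, with overlaps in both of those places. For Gbp3 and Gbp6, LCWE liver came second. It overlapped PBS intestine in both genes, and in Gbp6 it overlapped LCWE intestine as well. For Gbp10, LCWE liver lay apart from PBS liver, and the 3 lower groups overlapped each with its neighbour. The order between the tissues depended on the scaling. With quantile scaling LCWE intestine was the highest group for 3 members and LCWE liver for the other 6, and with median-ratio scaling for 2 and 7 members. PBS liver stayed lowest for the 8 members other than Gbp10 under both, an alternative chosen after seeing the data.

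The nearest relatives outside the 9 did not all move alike. Gbp2b, which lies between Gbp3 and Gbp2, had 16.3, 16.5 and 13.8 RPKM in the LCWE livers and 5.03, 5.79 and 6.45 RPKM in the PBS livers, and it rose by 1.36 ± 0.13 (limma, adjusted p = 0.00569). In intestine it had 12.1, 18.9 and 14.7 RPKM with LCWE and 16.8, 13.5 and 11.5 RPKM with PBS, with full overlap. Gbp11, next to Gbp6, had 16.3, 5.54 and 3.49 RPKM in the LCWE livers and 2.95, 7.08 and 4.63 RPKM in the PBS livers, with overlap and no call (0.53 ± 0.54; limma, adjusted p = 0.652). Over the 6 intestines Gbp11 had 0.197 to 0.766 RPKM. Like Gbp10, it was higher in PBS liver than in PBS intestine, with means of 4.88 and 0.408 RPKM. The log2 difference was 2.50 ± 0.27, and in this comparison Gbp11 reached the filter only through the livers. Gbp2b was lower in PBS liver than in PBS intestine, by a log2 difference of -1.20 ± 0.16. The atlastins Atl1, Atl2 and Atl3, membrane-fusing GTPases of the same superfamily, did not pass in liver, with log2 fold changes of 0.26, 0.03 and -0.07.

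Members of a family with similar sequence can share reads. Of all 50-base stretches of its transcript, Gbp6 shared 90.2% and Gbp10 82.5% with another gene, mainly Gm43302. This gene model lies on the same strand and overlaps 46.3% of the exon bases of Gbp10 and 29.0% of those of Gbp6. Gm43302 had 24.4, 20.2 and 18.1 RPKM in the LCWE livers and 6.15, 9.91 and 9.02 RPKM in the PBS livers. In intestine it had 49.8, 20.1 and 17.5 RPKM with LCWE and 24.7, 18.3 and 10.1 RPKM with PBS. The high value in LCWE replicate 1 was thus shared by Gbp6, Gbp10 and Gm43302, and how much of each level belongs to which gene is uncertain. The share was 21.2% for Gbp8, 12.8% for Gbp7 and Gbp4, 9.56% for Gbp9, 4.79% for Gbp3, 2.07% for Gbp2 and 0.898% for Gbp5. Gbp8, Gbp9 and Gbp4 also have 60 exon bases in common, and 11.3% of the exon bases of Gbp7 lie in Gm43802.

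The other families of interferon-inducible GTPases rose together with the GBPs in liver. All 8 genes listed passed (3.39% of all genes did so upwards), with a median of 1.51. Gvin1, a very large inducible GTPase, averaged 32.8 ± 7.57 RPKM in LCWE liver and 3.43 ± 1.01 RPKM in PBS liver (SD, n = 3 each), a change of 3.09 ± 0.25 (limma, adjusted p = 0.00557). Tgtp1 and Tgtp2, immunity-related GTPases, rose by 2.82 ± 0.24 and 2.22 ± 0.18 (limma, adjusted p = 0.00557 for both). Gm12250, of the same family, rose by 1.42 ± 0.13 (limma, adjusted p = 0.00557). None of the 8 passed in intestine, where their median was 0.46.

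Of the interferon gamma pathway genes described here, 1 of the 9 tested passed in liver. All 9 had a positive change, with a median of 0.43 over the list. Over the whole table, 3.39% of genes were called higher and 60.2% had a positive change. Irf8, a regulatory factor of myeloid cells, averaged 3.62 ± 0.0763 RPKM in LCWE liver and 1.47 ± 0.375 RPKM in PBS liver (SD, n = 3 each), and rose by 1.08 ± 0.16 (limma, adjusted p = 0.0209). Irf1, a transcriptional activator of GBP genes, had 0.87 ± 0.25 and did not pass (limma, adjusted p = 0.115). Of type I interferon signalling, 1 of 8 genes passed, Irf9 at 0.47 ± 0.09 (limma, adjusted p = 0.0429). The change was positive for 7 of the 8, and the median of the list was 0.33. No gene of either list passed in intestine.

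The ligand itself was near the limit of detection. Ifng had 2, 3 and 2 reads in the LCWE livers against 0, 4 and 10 in the PBS livers, and 7, 10 and 4 in the LCWE intestines against 6, 4 and 4 in the PBS intestines. A difference in Ifng was not detectable at this depth. Of 8 genes that drive its production, 2 passed the filter on low values in liver, Il18 and Il12rb2, and neither passed the test. Both had a negative fitted change, -0.07 ± 0.22 for Il18 and -0.26 ± 0.28 for Il12rb2, where 60.2% of all genes tested had a positive one. The rest were too low to be tested. Their means were all higher in LCWE than in PBS liver, from 0.0187 against 0.00997 RPKM (Il12a) to 0.570 against 0.0660 RPKM (Il18r1). No gene tested of 3 short lists of processes in which GBPs act passed in liver, where 3.39% of all genes were called higher, so lists of this size hold few calls or none at the background rate. This was 0 of 7 for the inflammasome, with a median of 0.37 and the smallest p for Casp4, the mouse caspase-11 gene (0.65 ± 0.14; limma, adjusted p = 0.0601). It was 0 of 10 for the autophagy conjugation machinery, with a median of -0.03, and 0 of 5 for the prenylation enzymes, with a median of 0.09.

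Summed markers of macrophages, of neutrophils and of T and NK cells were also higher in LCWE liver. For the counts below, 3.39% of all genes tested were called higher. Of 11 macrophage markers, 9 passed, with a median of 1.01. The 11 summed to 572 to 884 RPKM in the LCWE livers and 261 to 318 RPKM in the PBS livers. Marco (mean 197 RPKM with LCWE, 25.7 RPKM with PBS), Cd5l (178 and 86.4 RPKM) and Lyz2 (126 and 45.3 RPKM) weigh heavily in this sum. Lyz2, the lysozyme of myeloid cells, rose by 1.46 ± 0.20 (limma, adjusted p = 0.0168). Of 8 neutrophil markers, 3 could be tested and all 3 passed. The 8 summed to 16.9 to 34.4 RPKM in the LCWE livers and 1.69 to 4.55 RPKM in the PBS livers. S100a9 made up most of this sum, with means of 20.1 RPKM in the LCWE livers and 2.15 RPKM in the PBS livers. Elane, too low to be tested, was lower with LCWE (means 0.0514 and 0.104 RPKM). S100a8 and Csf3r averaged 0.140 and 0.353 RPKM in the PBS livers, and 1.11 and 1.47 RPKM in the LCWE livers. They reached the filter of 0.5 RPKM only through the LCWE livers, so being tested already required a high LCWE level. Of 12 T and NK cell markers, 4 could be tested and 2 passed, Cd3g and Gzmb. The 12 summed to 5.93 to 6.94 RPKM in the LCWE livers and 2.66 to 3.02 RPKM in the PBS livers. Cd3g likewise reached the filter only through the LCWE livers, with means of 0.769 RPKM there and 0.241 RPKM in the PBS livers. The counts of both lists thus favour genes that were high with LCWE. Of 8 B and plasma cell markers, 3 could be tested and 1 passed, Jchain. Their sums overlapped, at 7.45 to 15.2 RPKM in the LCWE livers and 4.38 to 16.2 RPKM in the PBS livers. The 8 endothelial and the 8 hepatocyte markers gave no call, with medians of 0.02 and -0.20. The part of these cell types in the GBP levels was not tested. In bulk tissue, more cells of a type and more RNA per cell cannot be told apart.

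In intestine the summed enterocyte markers were 1683 to 5706 RPKM with LCWE and 8801 to 18068 RPKM with PBS. The groups did not overlap, although none of the 8 genes passed. Fabp2 (mean 2227 RPKM with LCWE, 8120 RPKM with PBS) and Apoa4 (293 and 3738 RPKM) weigh heavily in this sum. The fitted log2 changes were uneven, from -4.47 (Lct) to 0.003 (Cdx2), with -0.33 for Anpep and -0.41 for Cdh17. The macrophage markers summed to 180 to 254 RPKM in the LCWE intestines and 154 to 191 RPKM in the PBS intestines, and the T and NK cell markers to 43.9 to 63.7 RPKM with LCWE and 32.0 to 52.0 RPKM with PBS. The sums of the macrophage and of the T and NK cell markers overlapped between the groups. The part of any of these cell types in the intestinal GBP levels was not tested.

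**Figure D5:**
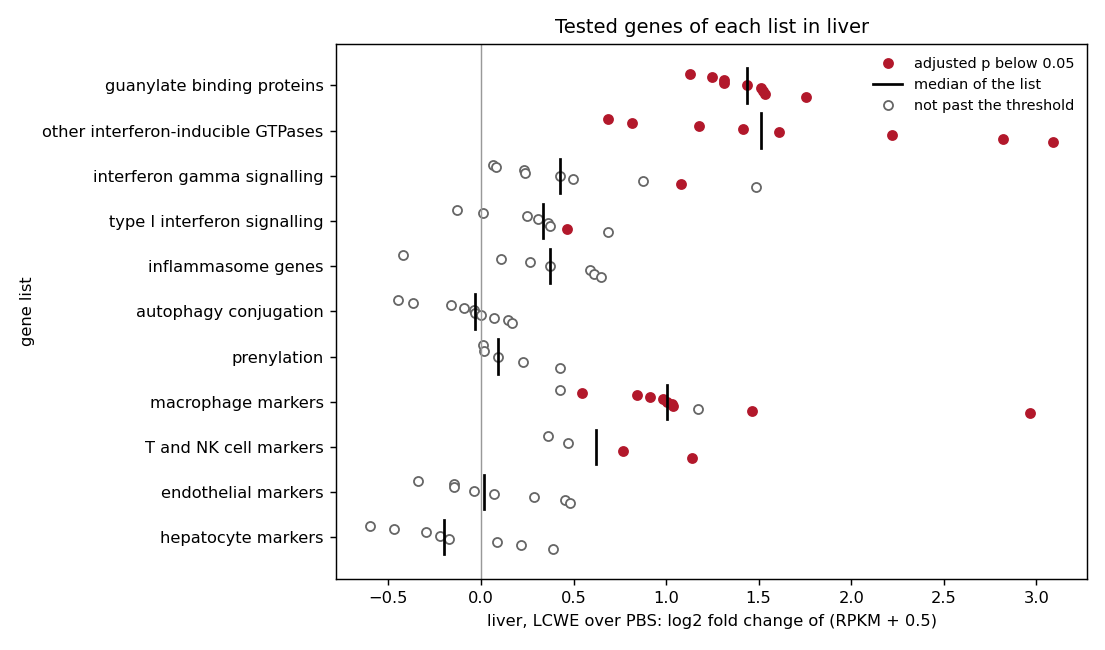
Log2 fold change of (RPKM + 0.5) in liver, LCWE over PBS, for the tested genes of each list; filled points passed an adjusted p of 0.05 in limma and bars are medians. All points of the GBPs and of the other inducible GTPases are filled and lie above 0.6, and none is filled among the inflammasome, autophagy, prenylation, endothelial and hepatocyte genes.

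The genes whose pattern was most like that of the family were found by correlating each of 13470 genes with the mean GBP profile over the 12 libraries, after centring every gene on its mean in each tissue. Among the 8 with the highest correlation were Gm12185 and Tgtp1 (0.985 each), Tgtp2 (0.983), Zfp935 (0.973), Epsti1 (0.968) and Irf9 (0.965). Gm12185 shares 223 exon bases with Tgtp1. Epsti1, an interferon-induced gene, rose in liver by 0.82 ± 0.12 (limma, adjusted p = 0.0183), while Zfp935 had 0.42 ± 0.11 and did not pass (limma, adjusted p = 0.102). Centring on the tissue mean keeps the difference between LCWE and PBS, so all these correlations include it. The members' own correlations with the profile ran from 0.910 (Gbp6) to 0.991 (Gbp2). The profile is the mean of these same members, so high values are built in.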

How the data were processed

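Total RNA was extracted with TRIzol, per the labels' protocols. Trimmomatic 0.36, featureCounts of Subread 1.5.1, edgeR 3.12.1 and mm10 are named in the submitters' processing notes. No aligner, strandedness or rule for shared reads is given in the sources used here. The values analysed are RPKM deposited by the authors, with a gene length column. Of its 16 library columns, 4 match no sample and were not used. Whole reads, recovered from RPKM and length, came out whole for 100% of values above 0 (tolerance 0.001). The authors' differential table holds log2 fold changes, p-values and FDR, per the file headers, and is quoted only where named.

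From these, limma 3.58.1 (R 4.3.3; two-sided, with an intensity trend, Benjamini-Hochberg over all genes tested) was run on log2(RPKM + 0.5). Genes had to reach 0.5 RPKM in at least 3 libraries of the comparison. Liver and intestine were fitted separately, the difference of the effects over all 12 libraries, and PBS liver against PBS intestine alone. The alternatives were other pseudocounts (0.1 and 1), no filter, quantile and median-ratio scaling, a replicate block, voom on recovered reads, 1 fit over 4 groups and each library left out. The scripts were tested on simulated data. With 3 libraries a group, an exact permutation test could not go below p = 0.1, so single values were tested only in the model. The members and lists were chosen with earlier results of these data known. All members and relatives were named. From other lists these were up to 4 genes with the smallest p, and further genes where they limit a count or a sum. A gene of the interferon gamma list is not reported here and was left out of that list's counts. Chr3 promoters are from RefSeq.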

Additional observations from a re-analysis of the deposited data

Results flagged for a closer look

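A difference between the tissues under the same contrast passed the threshold for 2 members. This count ran from 0 to 4 when a library was left out, and was 0 with the replicate block. Gbp3 had a liver effect larger than its intestinal effect by 0.99 on the log2 scale, with LCWE above PBS by 1.44 in liver and by 0.45 in intestine (limma, adjusted p = 0.0224). Gbp9 had a liver effect larger by 1.03, with 1.31 in liver and 0.29 in intestine (limma, adjusted p = 0.0348). In both genes every LCWE library lay above every PBS library of the same tissue, in liver and in intestine.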

How the results depend on the processing

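All 9 members kept a positive LCWE effect in both tissues, and a larger one in liver, under every alternative run. In liver, 9 were called with pseudocounts of 0.1 and 1, both scalings and voom, 6 without the filter and 8 in 1 fit over the groups; leaving out a library gave 4 to 9. The same-numbered libraries had correlations of -0.10 to 0.12, and the replicate numbers were not taken to pair the samples. Between LCWE liver and LCWE intestine, same-numbered libraries had 0.046, 0.040 and 0.0087, and differently numbered ones -0.044 to 0.0038. Between PBS liver and PBS intestine these were 0.031, -0.075 and 0.088, against -0.079 to 0.060. Such small values cannot decide whether a liver and an intestine came from the same mouse. The main fit of the tissue difference treated them as independent. With the replicate block, 0 members and 24 genes passed in liver, 0 members and 0 genes in intestine, and 0 members and 12 genes in the tissue difference. Over all genes, liver had 582 calls, 335 without the filter and 987 in 1 fit (leaving out a library, 55 to 943). Of the liver calls 84.0% were higher, 73.5% with quantile scaling. Intestine had 0 member calls under every alternative; over all genes it had 243 calls in 1 fit and 0 to 70 on leaving out a library. The tissue difference had 2 member calls, 1 without the filter, 1 with quantile scaling and 3 with voom (leaving out a library, 0 to 4), and 20 to 461 calls over all genes instead of 137. All 9 members were called between the PBS tissues, 7 under both scalings, which shift the median of all genes to 0.01 and -0.06. Only relatives outside the 9 changed sign, when 1 library was left out: Gbp2b in intestine (-0.046 to 0.27; -0.0093 without PBS replicate 4), Gbp11 in liver (-0.060 to 0.98) and in the tissue difference (-0.11 to 0.93). The causes were not tested. Depth limits what can be said of Ifng, with at most 10 reads in a library.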
